A study of Rattus norvegicus with 6 samples.

Results

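The 6 genes described here encode core parts of the receiving side of excitatory synapses. They were chosen by name and Ensembl identifier: Grin1 (ENSRNOG00000011726), Grin2a (ENSRNOG00000033942), Grin2b (ENSRNOG00000008766), Gria1 (ENSRNOG00000045816), Dlg4 (ENSRNOG00000018526) and Camk2a (ENSRNOG00000018712). All 6 were among the 22976 genes listed. The table gives identifiers only, and the reference used here holds 0 of them, so each name is that of the selection list and its pairing with the identifier was not checked. RNA was measured in the rostral ventromedial medulla, the brainstem region that sends pain-modulating fibres down to the spinal and trigeminal dorsal horn. In 3 libraries the jaw (temporomandibular) joints of both sides had been injected with CFA (complete Freund's adjuvant, used to inflame a joint) at 50 µL, and in 3 libraries with as much saline, and the tissue was that of day 3. The labels used here name rats with no strain, age or genotype, and leave unsaid whether each library is a separate animal, so the p-values measure a spread that may be technical. Markers of neurons, glia and neighbouring regions were not analysed here, so the labelled tissue was not checked against them.

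Glutamate released onto a dendritic spine opens AMPA receptors, which carry the fast current, and NMDA receptors, which admit calcium once the membrane is depolarised. Calcium binds calmodulin and activates CaM kinase II, which phosphorylates AMPA receptors and helps hold them at the synapse, while PSD-95 anchors the receptors in the postsynaptic density. In pain pathways of the brainstem and spinal cord, both receptor types are known for their part in lasting sensitisation after inflammation. The comparison asked whether transcripts of this machinery were altered on day 3 of joint inflammation, where the study looked at synapse removal by microglia.

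The mean of each of the 6 genes was lower after CFA, by 7.27% to 35.8%. Camk2a, Grin1 and Dlg4 fell past an adjusted p of 0.05, while Grin2a and Gria1 did not pass, and Grin2b was too low for the test. In 5 of the 6 genes, every CFA library lay below every saline library. FPKM values (fragments scaled to gene length and to library size) were tested in the 13566 genes that averaged 1 FPKM or more, and 16.5% of these had groups separated in that direction. Of the same genes, 7.48% passed the adjusted threshold as lower in CFA (limma, Benjamini-Hochberg) and 11.3% as higher, 18.8% in all. The calls were 1530 higher and 1015 lower with FPKM as given, and 1197 higher and 1391 lower (10.3%) with quantile scaling. Without a filter on level, the median log2 change of FPKM + 1 was -0.13 over the 6 genes and 0.0077 over all 22976 genes. In bulk tissue, fewer cells that express a gene and less of its RNA per cell cannot be told apart.

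**Figure D1:**
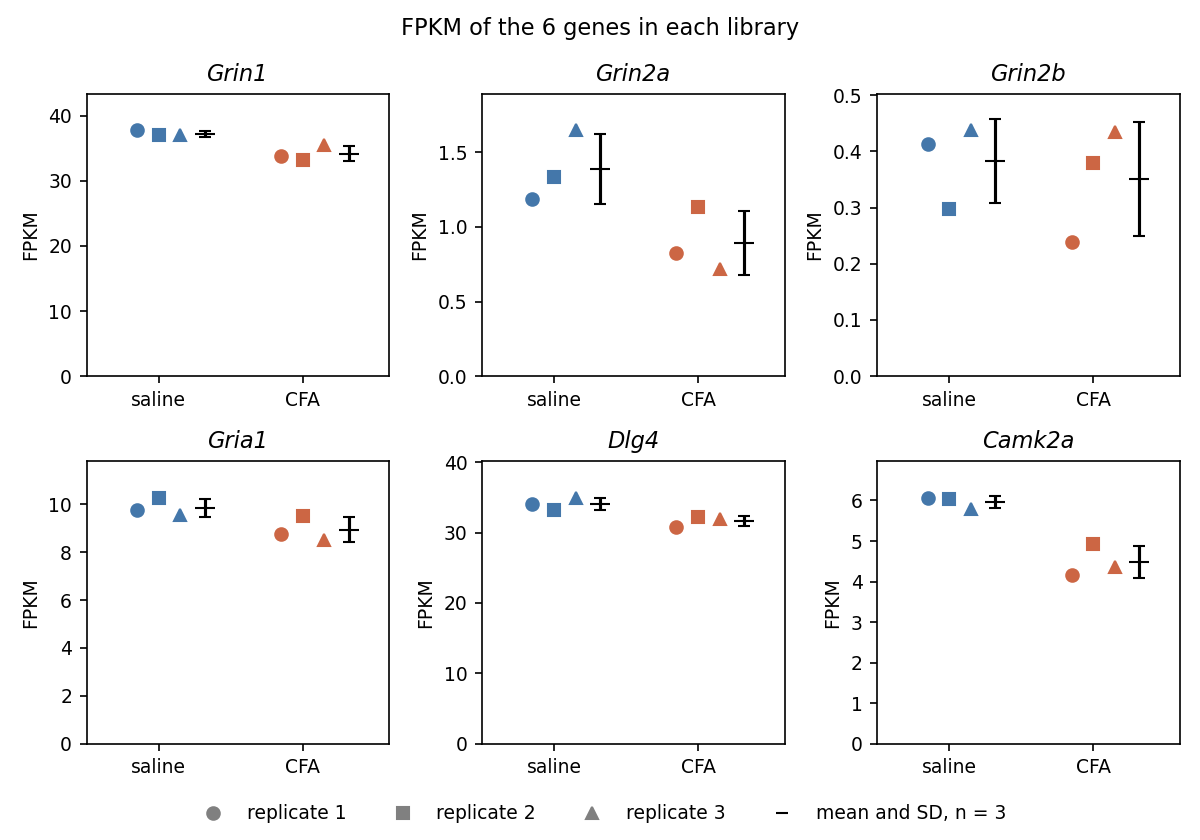
FPKM (vertical axes, each from 0) of the 6 genes in the 3 saline and the 3 CFA libraries, with a symbol for each replicate and the mean and SD (n = 3) in black. The groups are apart in every panel but that of Grin2b, and the separation is wide in Camk2a and narrow in Gria1.

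The order of levels was the same in both groups, from Grin1 through Dlg4, Gria1, Camk2a and Grin2a to Grin2b. Neighbours in that order did not overlap within either group. Over the 6 libraries, Grin1 averaged 35.7 FPKM, above 93.0% of the listed genes, and Dlg4 averaged 32.9 FPKM, above 92.3%. Gria1 averaged 9.39 FPKM and Camk2a 5.22 FPKM. The regulatory NMDA receptor subunits were lowest, Grin2a with 1.14 FPKM and Grin2b with 0.367 FPKM, which placed Grin2b above 31.4% of the listed genes. FPKM is a level per gene length, and the lengths behind it, worked out from the steps of the values, ran from 2702 bases for Camk2a to 5893 bases for Grin2a.

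Grin1 encodes GluN1, the subunit that every NMDA receptor needs. Its level was 37.8, 37.0 and 37.0 FPKM in saline and 33.8, 33.2 and 35.5 FPKM in CFA, for replicates 1, 2 and 3 of each group. The saline libraries lay within 1 FPKM of each other, and the highest CFA library, replicate 3, was 1.498 FPKM below the lowest of them. Means were 37.2 ± 0.443 and 34.2 ± 1.17 FPKM (SD, n = 3 each). On the log2(FPKM + 1) scale CFA differed from saline by -0.12 (SE 0.0297, adjusted p = 0.0262, limma), a small fall. The call was lost in 5 of the 6 fits without 1 library. The adjusted p (limma) was 0.0882, 0.0610 and 0.0658 without saline replicates 1, 2 and 3, and 0.0785 and 0.0736 without CFA replicates 1 and 2, and only without CFA replicate 3, at 0.0138, did the call stay.

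Grin2a encodes GluN2A, a glutamate-binding subunit of NMDA receptors that gives fast channel closure. Its level was 1.19, 1.34 and 1.65 FPKM in saline and 0.825, 1.13 and 0.720 FPKM in CFA, for replicates 1, 2 and 3 of each group. The groups did not overlap, but CFA replicate 2 came within 0.0544 FPKM of saline replicate 1. These values stood for 957 saline and 507 CFA fragments, each of which may be a read or a read pair. Such sums are not scaled to library size. Library totals were 34440104 to 44977905 fragments in saline and 27534174 to 38260153 in CFA. The saline mean of 1.39 ± 0.234 FPKM and the CFA mean of 0.893 ± 0.215 FPKM (SD, n = 3 each) differed by 35.8%, the widest relative difference among the 6 genes. On the log2(FPKM + 1) scale, which understates changes at such levels, the difference was -0.34 (SE 0.114, adjusted p = 0.0804, limma) and did not pass. From the fragments themselves (limma's voom, a log2 scale with no added FPKM) it was -0.66 with a 95% interval of -0.97 to -0.36 and an adjusted p of 0.000827, where 10.9% of tested genes passed as lower. It also passed with quantile scaling (adjusted p = 0.0379, limma) and without CFA replicate 2 (adjusted p = 0.0480, limma).

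Grin2b encodes GluN2B, the subunit that prevails in NMDA receptors early in development and gives slow channel closure. Its level was 0.414, 0.298 and 0.438 FPKM in saline and 0.238, 0.380 and 0.435 FPKM in CFA, for replicates 1, 2 and 3 of each group. The groups overlapped over most of their range. The libraries held 48 to 98 fragments of the gene, 240 in all in saline and 177 in CFA, not scaled to library size. The means were 0.383 ± 0.0748 and 0.351 ± 0.101 FPKM (SD, n = 3 each), 8.38% lower in CFA. With no filter, the log2(FPKM + 1) difference was -0.04 (SE 0.0733, adjusted p = 0.825, limma). From fragments, with no filter, the difference was -0.20 with a 95% interval of -0.75 to 0.35 (adjusted p = 0.697, limma's voom). That interval holds both no change and a fall as large as that of Camk2a.

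Gria1 encodes GluA1, an AMPA receptor subunit whose delivery to synapses rises with activity. Its level was 9.77, 10.3 and 9.53 FPKM in saline and 8.74, 9.52 and 8.53 FPKM in CFA, for replicates 1, 2 and 3 of each group. The groups met almost edge to edge, with 0.0148 FPKM between saline replicate 3 and CFA replicate 2. Means were 9.86 ± 0.375 and 8.93 ± 0.521 FPKM (SD, n = 3 each), 9.41% lower in CFA. On the log2(FPKM + 1) scale CFA differed from saline by -0.13 (SE 0.0509, 95% interval -0.25 to -0.01, adjusted p = 0.123, limma) and did not pass. No setting tried brought its adjusted p under 0.05, the lowest being 0.0552 with quantile scaling (limma).

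Dlg4 encodes PSD-95, the scaffold protein that binds the tails of NMDA receptors and links AMPA receptors through their auxiliary subunits. Its level was 34.1, 33.3 and 34.9 FPKM in saline and 30.8, 32.2 and 31.9 FPKM in CFA, for replicates 1, 2 and 3 of each group. The highest CFA library, replicate 2, was 1.11 FPKM below the lowest saline library, also replicate 2. Means were 34.1 ± 0.831 and 31.6 ± 0.751 FPKM (SD, n = 3 each). On the log2(FPKM + 1) scale CFA differed from saline by -0.11 (SE 0.0294, adjusted p = 0.0424, limma), a fall of 7.27% between the means and close to the threshold. The adjusted p (limma) was 0.107 and 0.131 without saline replicates 1 and 3, and 0.119, 0.0606 and 0.0774 without CFA replicates 1, 2 and 3. Without saline replicate 2 it was 0.0497. It was 0.0680 under cyclic loess scaling, a method that takes out trends with level, and 0.0612 with no filter (limma).

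Camk2a encodes the alpha subunit of CaM kinase II, the kinase that is abundant in forebrain excitatory synapses. Its level was 6.06, 6.04 and 5.78 FPKM in saline and 4.15, 4.92 and 4.36 FPKM in CFA, for replicates 1, 2 and 3 of each group. The CFA libraries spread more widely than the saline libraries, and the highest of them, replicate 2, was 0.862 FPKM below the lowest saline library. The values stood for 1896 fragments in saline and 1176 in CFA, not scaled to library size. Means were 5.96 ± 0.156 and 4.48 ± 0.397 FPKM (SD, n = 3 each), 24.9% lower in CFA. On the log2(FPKM + 1) scale CFA differed from saline by -0.35 (SE 0.0625, 95% interval -0.49 to -0.20, adjusted p = 0.00710, limma), and from fragments it was -0.43 (95% interval -0.61 to -0.25, adjusted p = 0.000268, limma's voom). The fall passed in each of the 20 alternative settings, with adjusted p from 0.000268 to 0.0311 (limma) and, in the 6 fits without 1 library, from 0.00432 to 0.0311.

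**Figure D2:**
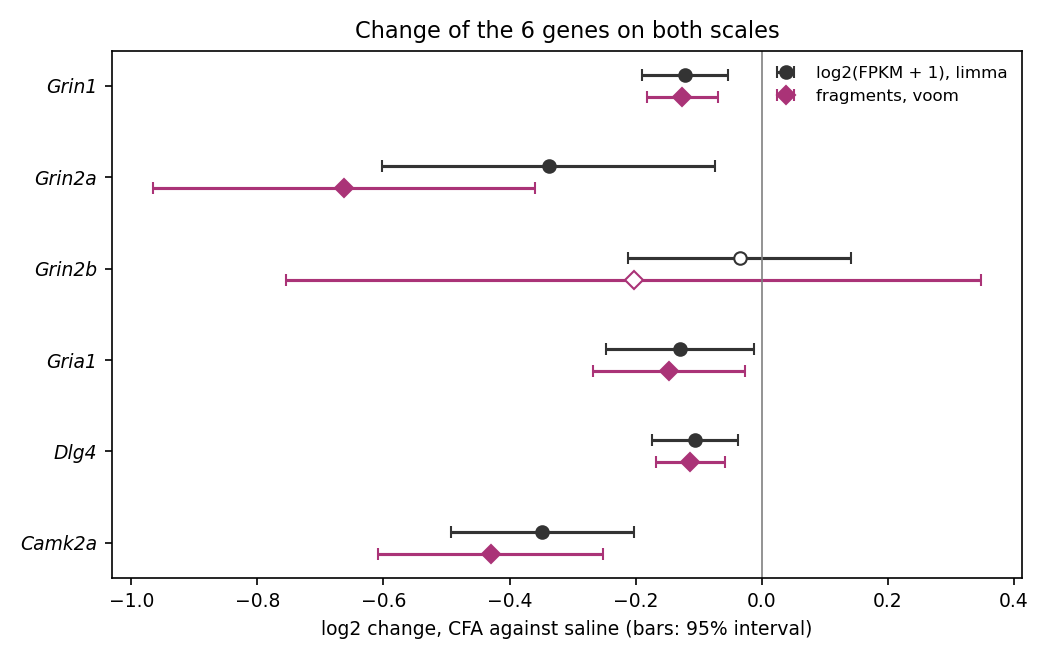
Log2 change of each gene, CFA against saline (horizontal axis), with 95% intervals, from log2(FPKM + 1) with limma (circles) and from fragments with voom (diamonds), open symbols marking Grin2b, which was fitted without a filter. The intervals of Grin1, Dlg4 and Gria1 lie close to 0, that of Grin2a moves from -0.34 to -0.66 at its centre between the scales, and that of Grin2b spans 0.

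The genes were also set beside other genes of like level. The share of genes that passed as lower varied with level, being 13.0% of the 1962 genes of 20 to 50 FPKM, 4.23% of the 2910 genes of 5 to 10 FPKM and 3.14% of the 1850 genes of 1 to 2 FPKM. Grin1 and Dlg4 belonged to the first of these classes, where the median log2 change was -0.01 and where 11.1% and 14.9% of genes had a lower value than they did. In the class of 5 to 10 FPKM, with a median of 0.02, Camk2a was lower than all but 30 genes (1.03%), and 291 genes had a lower value than Gria1. In the class of 1 to 2 FPKM, with a median of 0.04, 4.38% of genes had a lower value than Grin2a. These positions describe the same libraries and are no test.

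**Figure D3:**
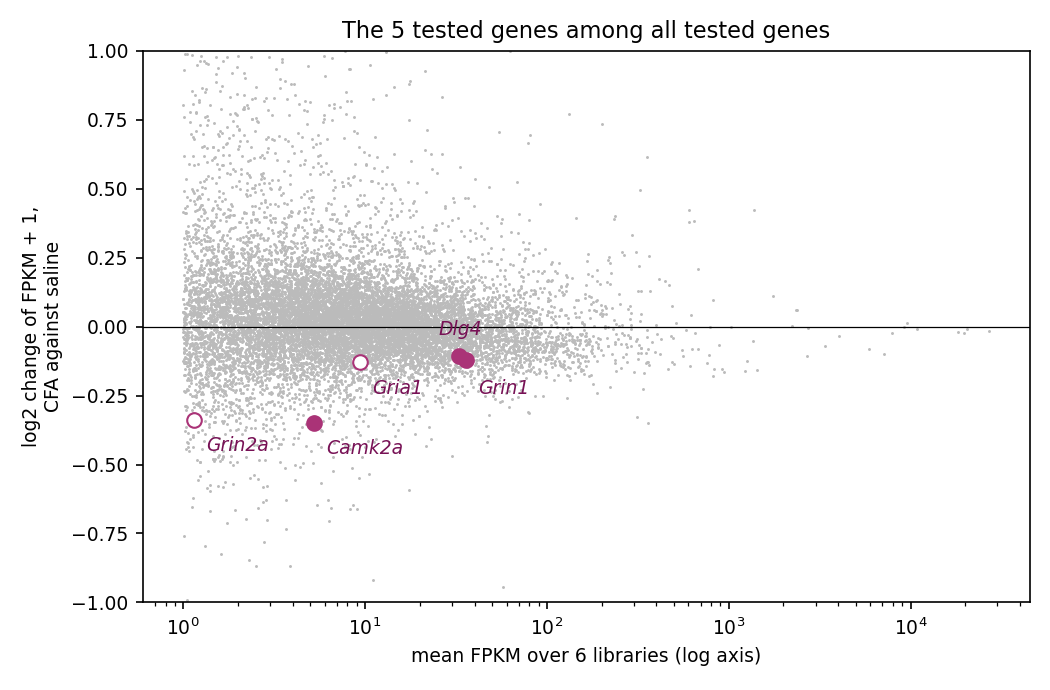
Log2 change of FPKM + 1 (vertical axis) against mean FPKM over the 6 libraries (horizontal log axis) for the 13566 tested genes in grey, of which 192 lie beyond the axis limits of -1 and 1. The 5 tested genes are marked, filled where the adjusted p was under 0.05, and all lie below 0, with Grin1 and Dlg4 within the dense cloud and Camk2a near its lower edge.

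Ratios of FPKM within a library are unaffected by any scaling that gives a library 1 common factor, though not by quantile or cyclic loess scaling, and 5 were formed. Camk2a relative to Dlg4 was 0.178, 0.182 and 0.166 in saline and 0.135, 0.153 and 0.137 in CFA, for replicates 1, 2 and 3 of each group. Every CFA library was lower than every saline library, and the log2 ratio differed by -0.31 (SE 0.0704, exact permutation p = 0.10, two-sided, n = 3 each), the smallest p that 3 against 3 allows. The ratio in CFA was 0.808 times that in saline. After adjustment over the 5 ratios its p was 0.50.

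The ratio of Gria1 to Grin1, an AMPA to an NMDA receptor subunit, averaged 0.265 ± 0.0113 over saline and 0.262 ± 0.0232 over CFA libraries (SD, n = 3 each). The groups overlapped, with a log2 difference of -0.02 (SE 0.0813, exact permutation p = 1.0). Grin2b relative to Grin1 was 0.0103 ± 0.00197 and 0.0102 ± 0.00280, a log2 difference of -0.03 whose SE of 0.302 leaves wide room (exact permutation p = 0.90, n = 3 each).

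Grin2a relative to Grin1 was 0.0315, 0.0361 and 0.0445 in saline and 0.0244, 0.0341 and 0.0203 in CFA, for replicates 1, 2 and 3 of each group. CFA replicate 2 fell among the saline libraries, and the log2 difference was -0.53 (SE 0.263, exact permutation p = 0.20, n = 3 each). Grin2a relative to Grin2b sets the GluN2A transcript against that of GluN2B only. For replicates 1, 2 and 3 the ratio was 2.87, 4.48 and 3.77 in saline and 3.46, 2.99 and 1.65 in CFA. The groups overlapped, with a log2 difference of -0.50 (SE 0.376, exact permutation p = 0.30, n = 3 each). After adjustment over the 5 ratios, p was 0.50 for both Grin2a ratios and 1.0 for the other two. No difference of any size could pass 0.05 with 3 libraries against 3.

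**Figure D4:**
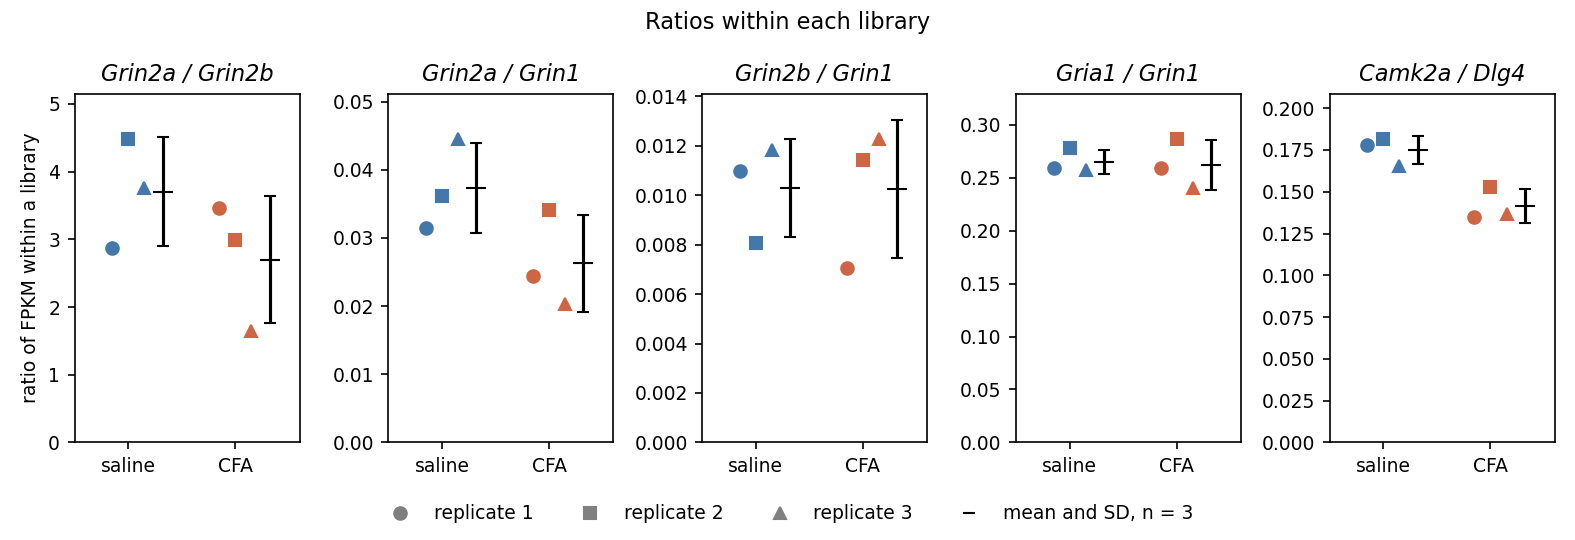
Ratios of FPKM within each library (vertical axes, each from 0) in the saline and CFA groups, with a symbol for each replicate and the mean and SD (n = 3) in black. Only Camk2a to Dlg4 shows groups that are apart, and Gria1 to Grin1 lies at 0.265 and 0.262 on average.

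The 6 genes differed in precision. Counting alone, if each fragment were an independent draw, would give Grin1 a coefficient of variation of about 1.26% between saline and 1.45% between CFA libraries, and the observed values were 1.19% and 3.43%. In Dlg4 counting gives 1.22% and 1.38%, and 2.44% and 2.37% were observed. In Gria1 counting gives 2.83% and 3.26%, and 3.80% and 5.84% were observed. Camk2a varied by 2.62% in saline and 8.87% in CFA where counting gives 4.00% and 5.06%. The GluN2 genes varied most. Grin2a varied by 16.9% and 24.1% where counting gives 5.65% and 7.77%, and Grin2b by 19.5% and 28.9% where counting gives 11.6% and 13.2%.

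**Figure D5:**
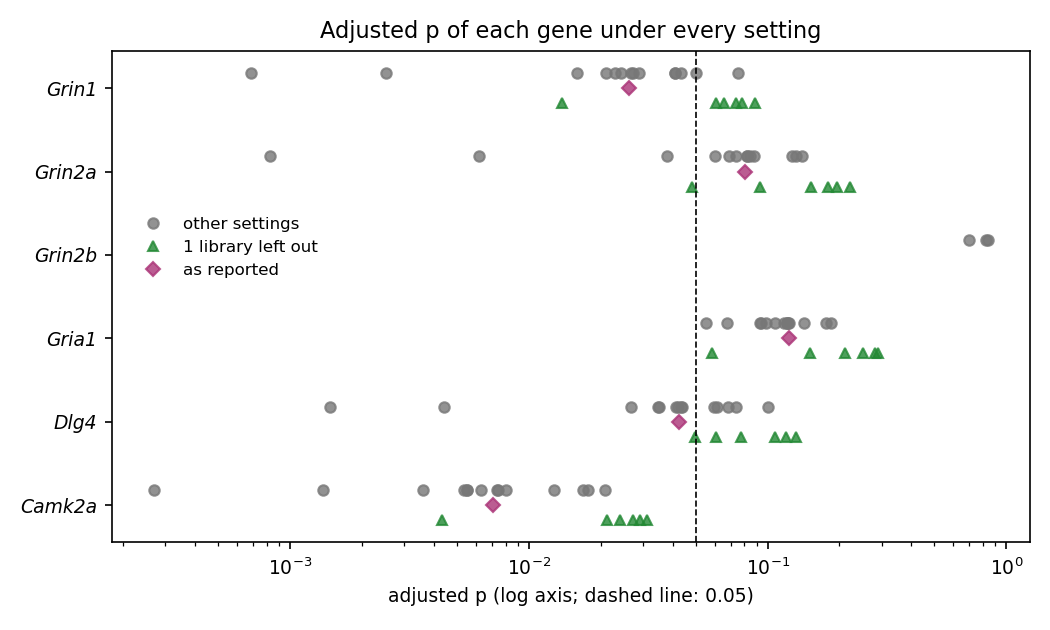
Adjusted p (horizontal log axis, dashed line at 0.05) of each gene as reported (diamonds), with 1 library left out (triangles) and under the other settings (circles), with Grin2b fitted only without a filter. Camk2a stays left of the line throughout and Gria1 right of it, while Grin1, Dlg4 and Grin2a lie on both sides.

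Promoter sequences are shown for Grin1, Dlg4 and Camk2a, the 3 of the 6 genes that matched an entry by symbol. These are also the genes that passed the adjusted threshold as lower in CFA, though the means of all 6 were lower. The sequences are the 250 bases before the annotated start in RefSeq (build GRCr8), printed 5′ to 3′ on the gene's strand. Capitals mark the half-site of the cyclic AMP response element, the motif of the activity-dependent factor CREB, searched as TGACG on both strands.
Grin1, chr3:28528755-28529004, minus strand: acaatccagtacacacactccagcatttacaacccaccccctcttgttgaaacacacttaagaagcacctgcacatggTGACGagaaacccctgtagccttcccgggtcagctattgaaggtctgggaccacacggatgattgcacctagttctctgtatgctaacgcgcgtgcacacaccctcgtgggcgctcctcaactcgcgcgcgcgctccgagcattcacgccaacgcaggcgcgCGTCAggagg
Dlg4, chr10:55239534-55239783, plus strand: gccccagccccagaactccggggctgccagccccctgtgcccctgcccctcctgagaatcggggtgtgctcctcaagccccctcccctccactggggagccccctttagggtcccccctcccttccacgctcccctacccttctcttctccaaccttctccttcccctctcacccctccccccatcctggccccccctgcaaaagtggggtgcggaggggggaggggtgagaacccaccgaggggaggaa
Camk2a, chr18:56648930-56649179, plus strand: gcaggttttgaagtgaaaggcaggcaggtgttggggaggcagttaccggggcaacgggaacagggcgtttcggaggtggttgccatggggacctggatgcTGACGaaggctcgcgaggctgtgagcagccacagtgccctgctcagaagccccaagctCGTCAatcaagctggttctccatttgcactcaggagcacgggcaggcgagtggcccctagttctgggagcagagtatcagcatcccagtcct
The Grin1 sequence held 2 matches, beginning 172 and 10 bases before the start, and the Camk2a sequence held 2, beginning 150 and 92 bases before it. The Dlg4 sequence held 0. Of 33469 windows of the same length, 18.2% held at least 1 match. No match to the GC box (GGGCGG, in 30.5% of windows) or the TATA box (TATAAA, 12.9%) was in the 3 sequences, with both strands searched and no overlap between motifs. The sequences also differed in composition. The Grin1 window held 19 CpG sites, 0.952 of the number that its C and G content would give, against 0.184 for Dlg4, 0.453 for Camk2a and a median of 0.383 over all windows. Expression data alone do not bear on whether any of these letters is bound.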

How the data were processed

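RNA of 6 libraries of rat rostral ventromedial medulla was measured, 3 after CFA and 3 after saline, grouped by the sample titles. Per the labels' protocols, poly-A RNA was read from both ends on a DNBSEQ-T7 instrument. The authors deposited FPKM values, 1 column per library. The submitters' processing notes name the build mRatBN7.2 and the tools HISAT2 2, StringTie 2, fastp 0.21.0 and DESeq2 1.30.1, with no role. Counter, annotation release, gene filter and strand setting: not given in the sources used here.

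FPKM moved in whole steps, from which relative depth, gene lengths and fragments followed. All 22976 genes gave whole numbers within 0.0001, and library totals ran from 27534174 to 44977905 fragments. Whether these are reads or read pairs is not stated in the labels, and lengths are known up to a divisor shared with all fragments of a gene. The recovery and the fit were tested on simulated data.

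limma 3.58.1 (R 4.3.3) was fitted to log2(FPKM + 1) of the 13566 genes that averaged 1 FPKM or more, CFA against saline (lmFit, eBayes with trend, 4 residual degrees of freedom), two-sided, with Benjamini-Hochberg adjustment over all genes tested. Log2 changes are on that scale unless voom on fragments is named. Ratios were compared by exact permutation over libraries. Python 3.11.15 with pandas 2.3.3, numpy 2.4.6 and matplotlib 3.10.9 made tables and figures. The 6 genes, the lists and the tests were chosen with earlier results of these data known, and classes of level and promoter motifs were set after the values were seen. All 6 genes were named by rule. Other glutamate receptor genes, scaffolds and cell type markers had been listed to be described too, with genes of like pattern, but could not be matched by symbol and are not analysed here. Settings tried covered the pseudocount, filter, scaling, variance moderation, voom, a replicate block and each library left out.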

Additional observations from a re-analysis of the deposited data

How the results depend on the processing

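Direction held in every setting in which a gene was fitted. For Grin2b these were only settings with no filter, and none left out a library, so its direction was hardly tested. Its CFA values ran from 0.238 FPKM in replicate 1 to 0.435 FPKM in replicate 3, on both sides of the saline mean of 0.383 FPKM. Camk2a and Gria1 stayed on their side of the adjusted threshold (limma) in 20 of 20 settings each. Grin1 kept its call in 13 of 20 and Dlg4 in 10 of 20, and Grin2a gained one in 4 of 19. The count of the 6 genes that passed as lower, 3, was 1 without a trend in limma's variance, and likewise 1 with a replicate block, Camk2a being left in both. It was 1 to 2 with each library left out in turn, and these fits had fewer libraries. The count was 2 with no filter, where 820 of 22976 genes passed as lower. The count was also 2 with cyclic loess scaling, where 969 of 13566 genes did. It was 4 with quantile scaling and with voom, where 10.3% and 10.9% of tested genes passed as lower. With the block the adjusted p was 0.0502 for Grin1 and 0.0737 for Dlg4 (limma), and 2086 of all genes passed, against 2545. Deviations from the group means correlated by -0.0214 to 0.0229 across genes between same-numbered libraries, and by -0.0347 to 0.0144 between the others. Deviations from a mean of 3 cancel within a group, so these values cannot show whether same-numbered libraries were paired. The sample titles name no pairing. Of all genes, 1015 passed as lower, 666 without the trend, and 600 to 781 with 1 library left out. Without the trend the adjusted p was 0.0753 for Grin1 and 0.101 for Dlg4 (limma), and the cause was not tested. Grin2b was fitted with no filter only. The settings that joined no filter with a pseudocount of 0.1 or with voom were chosen after seeing the data. The log2 differences of the 5 ratios moved by less than 1 SD between replicates, but that SD is wide for the Grin2a ratios. Grin2a to Grin2b, -0.50, became -0.18 without CFA replicate 3 and -0.30 with a pseudocount of 1, but -0.71 without CFA replicate 1. Grin2a to Grin1, -0.53, became -0.36 without CFA replicate 3 and -0.22 with that pseudocount, but -0.73 without CFA replicate 2. Camk2a to Dlg4 stayed between -0.36 and -0.24. Grin2b to Grin1 (-0.19 to 0.22) and Gria1 to Grin1 (-0.08 to 0.04) took both signs. Ratios to general neuronal markers and the gene lists were not run for want of symbols. Grin2b had the fewest fragments, 48 to 98 per library.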
